A study of Mus musculus with 4 samples.

Results

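The control hepatocytes of the series are the 2 samples labelled DMSO a and DMSO b, of 4 samples in all, each read on its own 1-colour array. They are primary hepatocytes from mice of the strain labelled bl6, grown in medium with 10% serum and then held overnight at 0.5% serum. Both samples carried simvastatin at 5 µM, a statin that lowers cholesterol synthesis, mevalonic acid at 100 µM, an intermediate of that pathway, and DMSO, the solvent. The other 2 samples had the same serum, statin and mevalonic acid with the LXR agonist GW3965, so the levels below are those of cells under a statin and mevalonate, not of untreated cells, and no sample without these agents was analysed here. The design text puts the statin and mevalonate before the overnight DMSO, while the treatment protocol lists them together, so their order is not settled. The labels do not say whether a and b came from separate animals or separate cultures, so the spread between them may be technical. With 1 group of 2 samples no test was possible, and every error below is the SD over 2 arrays.

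A gene was taken as a member where at least 1 of its probes was marked by the scanner software as well above background on both arrays. This held for 16044 of the 22227 genes named on the array, or 72.2%, and for 33940 of the 55681 probes. Another 953 genes passed on 1 array or on each array by a different probe, and 5230 passed on neither. The level is the log2 signal minus the array's 75th percentile over all probes other than controls, so that 0 is the signal of a probe at that percentile. Where several probes of a gene passed, the one with the highest mean stood for it. Levels of member genes ran from -5.51 to 10.20, with quartiles of -2.10 and 2.92 and a median of 0.59. A rank below is a place in the order of these probe signals, 1 being the brightest of 16044. It is not an order of RNA abundance, since probes differ in how brightly they bind.

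Hepatocytes make most of the proteins of blood plasma, among them albumin, clotting factors, complement and the apolipoproteins of lipoprotein particles. They also run gluconeogenesis, the urea cycle, bile acid synthesis and the breakdown of drugs, under transcription factors such as HNF4A and the CEBP proteins and under nuclear receptors that sense oxysterols, bile acids and fatty acids. In culture on plastic, hepatocytes are known to spread, to build up actin, tubulin and keratin, and to lose part of their metabolic gene expression. Statins lower the flow through the mevalonate pathway, which SREBP2 answers by raising genes of cholesterol synthesis and uptake, while added mevalonate bypasses the block.

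The genes chosen as marks of these cells, Apoe, Apoc1, Hnf4a and Lpcat3, were all members, as was albumin. Alb, which encodes serum albumin, read 9.45 on replicate a and 9.35 on replicate b, for a mean of 9.40 ± 0.07 (SD, n = 2), at rank 27. Apoe, the ligand by which lipoprotein remnants are taken up, stood at 9.21 and 8.87, for a mean of 9.04 ± 0.24, and Apoc1, which lies beside it in the genome, at 9.004 and 8.74, for a mean of 8.87 ± 0.18. Hnf4a, the nuclear receptor that maintains the hepatocyte state, stood at 4.08 and 2.79, for a mean of 3.44 ± 0.91, so that its replicates differed by more than 2-fold. Lpcat3, which puts polyunsaturated fatty acids into phospholipids, stood at 3.42 and 3.29, for a mean of 3.35 ± 0.09. Apoe and Apoc1 ranked 65 and 85, while Hnf4a and Lpcat3 ranked 3208 and 3324. On the mm9 build of the array's design, the Apoe probe lies on chromosome 7 from 20281732 to 20281791 and the Apoc1 probe on the same chromosome from 20274831 to 20274890. The Hnf4a probe lies on chromosome 2 from 163398548 to 163398607, the Lpcat3 probe on chromosome 6 from 124653374 to 124653542 and the Alb probe on chromosome 5 from 90901598 to 90901657. No mm9 annotation was used here, so the exon or untranslated region under each probe is not given.

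All 20 hepatocyte markers on the list were members, with a median level of 5.62 against 0.59 for all genes. They reached from Serpina1a, which encodes the elastase inhibitor alpha-1-antitrypsin, at 10.03 and 9.66, to Cps1, the enzyme that feeds ammonia into the urea cycle, at -1.99 and -2.95. Trf, which encodes the iron carrier transferrin, stood at 9.59 and 9.23. Tdo2, a liver enzyme of tryptophan breakdown, stood at -0.64 and -2.29, and Tat, which breaks down tyrosine, at 1.03 and -0.40. The markers for secreted proteins therefore lay near the top of the signal range, and those for amino acid breakdown lay near or below its middle. All 20 were higher on replicate a than on b, where 43.5% of all member genes were. Over the other scalings and probe choices tried, the differences of Alb and Slc10a1, 0.10 and 0.19, fell as low as -0.02 and -0.01.

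How far a level depends on the probe could be read from genes with several probes. Among 4745 genes with at least 2 member probes, the brightest and dimmest probe of a gene differed by a median of 2.31 on the log2 scale, and by more than 3 for 39.5% of them. Of 6034 member genes with several probes, 1640 also had a probe that did not pass. Gapdh, the glycolytic enzyme, had 8 probes between 5.91 and 9.61, while Cycs, which encodes cytochrome c, had probes at -5.23, 3.47 and 6.22. Hmgcs1, an early enzyme of the mevalonate pathway, had one at -3.57 and another at 5.98. The gap between probes of a gene thus exceeded the median SD between the 2 arrays, which was 0.20, by a wide margin. Probes named for the same gene did not always lie on the same chromosome. The Gapdh probe at 9.61 lies on chromosome 7, while those on chromosome 6 reached 8.55. Whether such probes read the named gene was not tested.

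**Figure D1:**
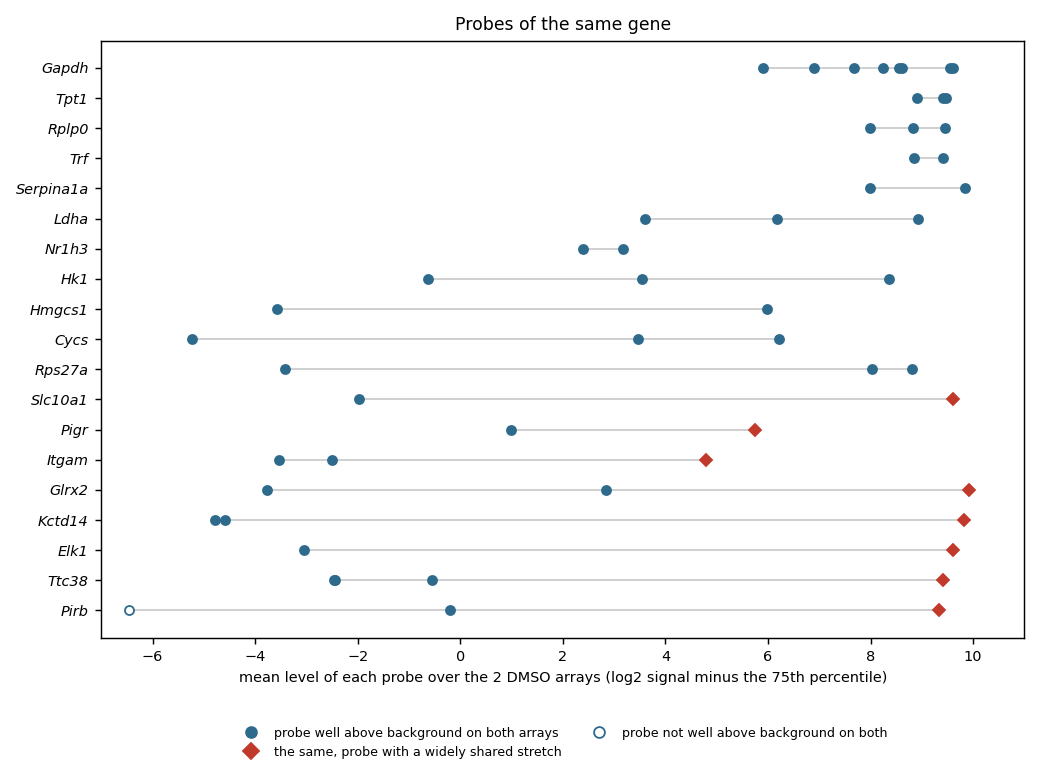
Mean level over the 2 DMSO arrays (x axis, log2 signal minus the 75th percentile) of every probe of 19 named genes (y axis), with filled circles for probes well above background on both arrays, red diamonds for such probes that carry a widely shared stretch, and open circles for the rest. Gapdh probes sit between 5.91 and 9.61, whereas the diamond of Slc10a1 sits at 9.60 and its other probe at -1.98.

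Some of the brightest probes shared a stretch of sequence with probes of unrelated genes. A probe was called repeat-like where it held 16 bases in a row that also occur in probes of protein-coding genes with at least 4 different starts of their symbols, a rule added after the data were seen. This applied to 552 probes, 0.991% of all, of which 508 were members, with a median level of 2.89 against -0.99 for all member probes. They stood for 1.92% of member genes but for 15 of the 100 genes with the highest level. The 2 stretches below are shown because they account for most of those 15. Capitals mark the 16 shared bases within 30 bases of each probe, read 5′ to 3′.
Pirb: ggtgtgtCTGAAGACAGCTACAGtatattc
Fam177a2: ctggtgtCTGAAGACAGCTACAGtgttctt
Pbld1: ggagtgtCTGAAGACAGCTACAGtgtaatt
Glrx2: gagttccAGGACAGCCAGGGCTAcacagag
Kctd14: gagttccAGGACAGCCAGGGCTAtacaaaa
Elk1: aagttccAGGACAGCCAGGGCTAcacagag
The probes of the first 3 genes lie on mm9 at chr7:3663046-3663105 (minus strand), chr12:56243005-56243064 (plus) and chr10:62540215-62540274 (plus), and those of the last 3 at chr1:145596708-145596767 (plus), chr7:104606896-104606955 (plus) and chrX:20510521-20510580 (minus).

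The first stretch was in 11 probes of named genes on the same strand, all members, at levels from 7.97 to 9.33, and 7 of these genes were among the top 100. The second was in 7 such probes, all members, from 6.53 to 9.92, and 6 were among the top 100. Short interspersed repeats of rodents lie within many transcripts, and whether these stretches come from them was not tested. Pirb, an inhibitory receptor of leukocytes, read 9.38 and 9.28 through this probe, while its other probes stood at -0.21 and -6.46, the latter below the rule. Glrx2, a mitochondrial glutaredoxin, read 10.03 and 9.81, with its other probes at 2.84 and -3.77. Kctd14 had a mean of 9.82 by this probe and of -4.58 and -4.79 by the others, and Elk1, a transcription factor of the serum response, 9.60 and -3.04. Slc10a1, the sodium-dependent bile acid carrier and a hepatocyte marker, read 9.70 and 9.51 on a repeat-like probe, and its other probe had a mean of -1.98. Without repeat-like probes, 15875 genes remained members and the median of the hepatocyte markers was 4.87.

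With that limit, the highest signals belonged to plasma proteins, structural proteins and the machinery of translation. Mup19 and Mup9, which encode major urinary proteins, small carriers of pheromones made by the liver, had the highest levels, at 10.38 and 10.02 for Mup19 and 10.27 and 10.02 for Mup9. Serpina1c, a copy of the alpha-1-antitrypsin gene, followed at 10.17 and 9.90. Krt18, the type I keratin of hepatocytes, stood at 9.99 and 9.87, Actb, which encodes beta-actin, at 9.97 and 9.74, and the mitochondrially encoded oxidase subunit COX1 at 10.01 and 9.70. Fth1 and Ftl1, the chains of the iron store ferritin, had means of 9.80 ± 0.18 and 9.60 ± 0.33. The Ftl1 probe used lies on chromosome 17, and another Ftl1 probe, on chromosome 7, had a mean of 8.22. Among the 100 genes with the highest level, 28 encode ribosomal proteins, 7 are major urinary protein genes, 3 belong to the Serpina family and 13 are on the lists of secreted proteins. The Serpina and secreted counts overlap. Mup19, Mup9 and Serpina1c are not on the secreted lists, so 13 is not a count of all secreted protein genes. The Mup and Serpina1 genes are near-identical copies of each other, and a probe for one may bind transcripts of several, so which copy gave the signal is uncertain.

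**Figure D2:**
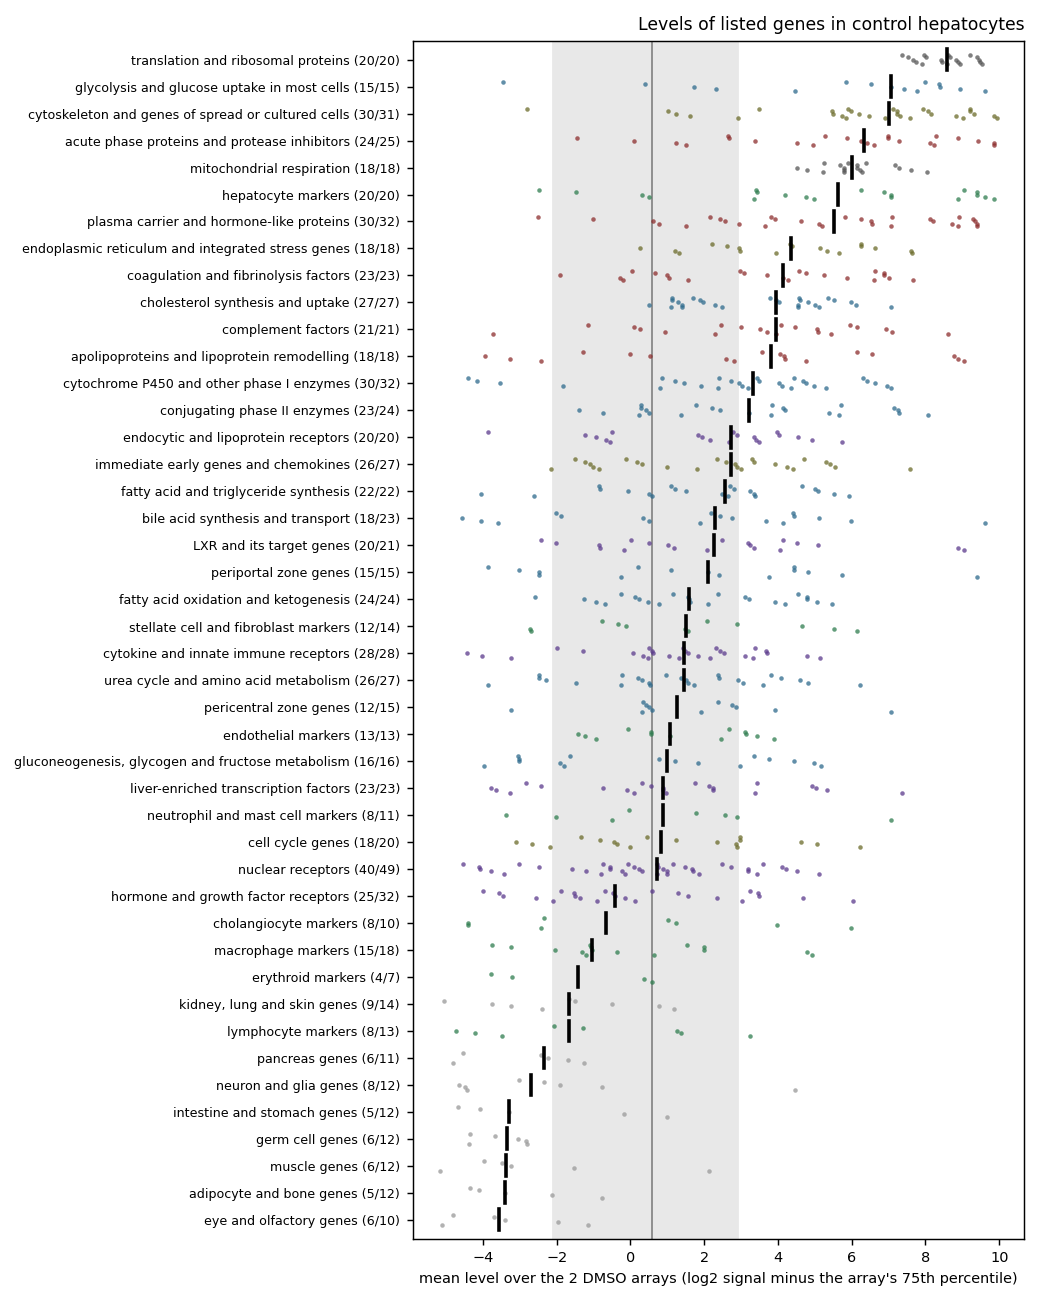
Mean level of each member gene over the 2 DMSO arrays (x axis, log2 signal minus the array's 75th percentile) for 44 gene lists (y axis, with members and measured genes in brackets), where points are genes, black bars are list medians, and the grey line and band are the median and quartiles of all member genes, at 0.59, -2.10 and 2.92. Ribosomal proteins have the highest median, 8.60, and eye and olfactory genes the lowest, -3.56.

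Of 119 genes on the 5 lists of secreted plasma proteins, 116 were members, or 97.5% against 72.2% of all genes, with a median level of 4.54. Those in the top 10% of all member genes by signal numbered 55. Carriers and hormone-like proteins had 30 members of 32 and a median of 5.51. Ambp, the precursor of the heme scavenger alpha-1-microglobulin, stood at 9.43 and 9.15, Hpx, the heme carrier hemopexin, at 9.04 and 8.79, and Gc, the vitamin D carrier, at 8.99 and 8.80. At the lower end, Thpo, the hormone that drives platelet formation, stood at -2.05 and -2.96, and Igfals, which holds insulin-like growth factors in plasma, at -0.63 and -1.43. Epo, the erythropoietin gene, was not well above background on either array, and Fgf21, a hormone induced by fasting and mitochondrial stress, passed on 1 array only.

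Acute phase proteins and protease inhibitors had the highest median of the secreted lists, at 6.33, with 24 members of 25. Saa1 and Saa2, the serum amyloid A genes that rise in inflammation, read 9.59 and 9.25, and 9.06 and 8.69. Mt2, a metallothionein that binds zinc and copper, stood at 8.56 and 8.03. Crp, by contrast, which in mice is not a major acute phase reactant, stood at -0.49 and -2.41, and Saa4 at 1.45 and -1.24. A1bg did not pass on either array.

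The 23 coagulation and fibrinolysis genes were all members, with a median of 4.14. Kng1, the kininogen that yields bradykinin, stood at 7.79 and 7.52, Serpinc1, which encodes antithrombin, at 7.21 and 6.82, and F2, which encodes prothrombin, at 6.98 and 6.76. Fgb, the beta chain of fibrinogen, read 7.98 on replicate a but 5.76 on b, for a mean of 6.87 ± 1.57. F8, the factor missing in haemophilia A, which the liver's endothelial cells are known to make, read -3.06 on a and -0.77 on b. It had the lowest level of the list and the opposite direction between arrays to Fgb.

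All 21 complement genes were members, with a median of 3.95. C3, on which the activation pathways converge, read 8.86 and 8.34, Cfb, of the alternative pathway, 7.30 and 6.90, and C4b, of the classical and lectin pathways, 7.16 and 6.69. Cfd, the protease better known from fat cells, was lowest at -3.20 and -4.27.

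The 18 apolipoprotein and lipoprotein remodelling genes were all members as well, with a median of 3.81. Apoa2, a protein of high density lipoprotein, stood at 9.20 and 8.34, Apoc3, which slows triglyceride clearance, at 6.85 and 6.24, and Apoh at 6.33 and 5.97. Apoa5, which promotes that clearance, stood at -3.85 and -4.05, and Apod at -3.10 and -3.44. Pltp, the phospholipid transfer protein, read -2.23 and -2.65. Their levels spanned nearly the whole range of the arrays.

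The start sites of the secreted protein genes differed in base composition from those of most bright genes. Promoter sequences from RefSeq on GRCm38.p6, covering 250 bases before to 50 after the start, were matched to 17371 genes. A promoter was called CpG-rich at a GC content of at least 50% and at least 0.6 of the CpG count that its base composition would give. This held for 75% of genes in the quintile of member genes with the highest level, for 76.4%, 68.2%, 52.7% and 35.8% in the next 4 in order, and for 19.2% of genes outside the detection rule. Of 92 member genes on the secreted lists, 7.61% had such a promoter, against 92.3% of 13 on the ribosomal list and 49.95% of all 17371. TATAAA, read on the strand of the gene and lying between bases -40 and -11, was present in 11 of the 92, or 11.96%, against 3.05% of all genes and 2.30% in the top quintile. GTTAAT on either strand, a short motif of liver promoters, was present within 80 bases before the start in 16 of the 92, or 17.4%, against 1.96% of all genes and 2.29% of 27025 promoters in the table. GTTAAT was chosen after the promoters had been seen, and a match is a description of letters, not a binding site. Overlaps between the 2 motifs were not counted.

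The 80 bases before the start are shown for 3 genes of secreted proteins, picked after they were seen, with GTTAAT or its complement in capitals, and for 2 genes of the translation list, with each CG in capitals, since they show the contrast.
Alb: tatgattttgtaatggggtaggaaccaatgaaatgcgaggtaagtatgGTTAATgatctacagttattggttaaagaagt
Serpina1c: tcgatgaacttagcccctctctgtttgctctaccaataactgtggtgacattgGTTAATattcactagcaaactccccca
Fgb: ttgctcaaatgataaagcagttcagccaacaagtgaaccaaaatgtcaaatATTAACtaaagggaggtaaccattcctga
Rplp0: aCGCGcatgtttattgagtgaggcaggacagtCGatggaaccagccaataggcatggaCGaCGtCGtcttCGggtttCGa
Tpt1: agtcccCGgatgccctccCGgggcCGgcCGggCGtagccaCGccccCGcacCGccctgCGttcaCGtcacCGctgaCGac
On GRCm38.p6 these are chr5:90460790-90460869 (plus strand), chr12:103904951-103905030 (minus), chr3:83049864-83049943 (minus), chr5:115559387-115559466 (plus) and chr14:75845176-75845255 (plus). In Alb the motif runs from base -32 to -27, in Serpina1c from -27 to -22, and in Fgb, on the opposite strand, from -29 to -24. The 80 bases hold 1 CG in Alb, 1 in Serpina1c and 0 in Fgb, against 8 in Rplp0, which encodes a protein of the ribosomal stalk, and 12 in Tpt1, which encodes the translationally controlled tumour protein.

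Genes of general metabolism stood higher than most liver-specific pathways on this scale. The 15 glycolysis genes, glucose transporters among them, were all members, with a median of 7.08, with Gapdh at 9.71 and 9.52, Ldha, which makes lactate, at 9.01 and 8.86, Eno1 at 8.40 on both, and Hk1, the hexokinase of most tissues other than liver, at 8.32 and 8.42. The Hk1 probe used lies on chromosome 5, while its other probes, at 3.54 and -0.62, lie on chromosome 10, so its place depends on the probe. Slc2a3, a glucose transporter of neurons, was lowest at -3.78 and -3.15. With the mean of each gene's probes in place of the brightest, the glycolysis median was 5.85, and with the dimmest 4.61. Mitochondrial respiration had a median of 6.02 over 18 of 18, led by Atp5b, a subunit of ATP synthase, at 7.89 and 8.19.

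Gluconeogenesis, glycogen and fructose metabolism had a median of 0.99 over 16 of 16. Khk, which phosphorylates fructose, stood at 5.20 and 5.12, Pygl, which releases glucose from glycogen, at 5.16 and 4.80, and Fbp1 at 4.84 and 4.03. Enzymes of glucose output were among the 3 lowest of the list. Pck1, which commits oxaloacetate to gluconeogenesis, read -2.40 and -3.66, and G6pc, which frees glucose for export, -2.84 and -3.28.

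The urea cycle and amino acid list had a median of 1.44, with 26 members of 27 and Asrgl1 below the rule on both arrays. Glud1, which releases ammonia from glutamate, stood at 6.15 and 6.32, and Ass1, which joins citrulline and aspartate, at 4.93 and 4.68. Sds, which deaminates serine, at -3.17 and -4.59, Hal, which acts on histidine, at -1.61 and -3.35, and Cps1 were the lowest. Fatty acid oxidation and ketogenesis had a median of 1.60 over 24 of 24. Acaa2 and Acadvl, enzymes of mitochondrial beta-oxidation, read 5.83 and 5.08, and 4.91 and 4.67. Ehhadh, of peroxisomal beta-oxidation, was among the 3 lowest at -0.62 and -1.93.

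Cholesterol synthesis and uptake, the pathway the statin and mevalonate act on, had 27 members of 27 and a median of 3.95. Fdps, which makes farnesyl diphosphate, stood at 7.02 and 7.13, Msmo1, a sterol demethylase, at 6.19 and 6.05, and Hmgcs1 at 6.19 and 5.77. Insig1, which holds SREBP proteins back in the endoplasmic reticulum, was lowest at 0.54 and 0.47. With the mean of each gene's probes in place of the brightest, the median of the list was 2.30, and with the dimmest 1.75. Fatty acid and triglyceride synthesis had 22 members of 22 and a median of 2.56, with Acly, which supplies cytosolic acetyl-CoA, at 5.82 and 6.05, and Agpat2, an acyltransferase of phosphatidic acid synthesis, at 5.47 and 5.55. Srebf1, the transcription factor of lipogenic genes, stood at -0.96 and -0.72, Gpam at -2.38 and -2.85, and Pnpla3 at -3.43 and -4.66.

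Bile acid synthesis and transport had 18 members of 23, or 78.3%, against 72.2% of all genes. Cyp7a1, the rate-limiting enzyme of the classical pathway, read -7.61 and -6.88, below the rule on both arrays, and Cyp8b1, which sets the share of cholic acid, Akr1d1, a reductase of the sterol ring, and Slc51a, a basolateral exporter, did not pass on either array. Abcg8, a transporter of sterols into bile, passed on 1 array only. Baat, which joins bile acids to taurine, was the dimmest member at -4.80 and -4.35. Slc27a5, which activates bile acids, stood at 6.04 and 5.93, Abcc3, a basolateral pump, at 5.29 and 4.93, and Abcb4, which moves phosphatidylcholine into bile, at 4.50 and 4.33. The median of the members was 2.30, with Slc10a1 on its repeat-like probe among them.

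Cytochromes P450 and other phase I enzymes had a median of 3.31 over 30 of 32. Cyp2e1, which oxidises ethanol and paracetamol, stood at 7.44 and 6.72, Ces3a, a carboxylesterase, at 7.16 and 6.77, Ephx1, the microsomal epoxide hydrolase, at 6.93 and 6.32, and Por, which passes electrons to P450 enzymes, at 6.45 and 6.18. Cyp1a1, a target of the aryl hydrocarbon receptor, read -3.32 and -3.77, and Cyp1b1 -4.90 and -3.42. Cyp2j5 passed on neither array and Cyp2b9 on 1. Phase II enzymes had a median of 3.21 over 23 of 24, led by the glutathione transferases Gsta1, at 8.08 and 8.05, Mgst1, at 7.51 and 7.04, and Gstp1, at 7.29 and 7.21. Ugt1a6a, a glucuronosyltransferase, was below the rule on both. P450 and transferase genes have close copies, so signals of single members are uncertain. By symbol, 79 of 99 genes starting with Cyp passed, or 79.8% against 72.2% of all genes.

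Zonation genes, which differ between hepatocytes near the portal vein and near the central vein, were measured for both zones. The periportal list had 15 members of 15 and a median of 2.11, and the pericentral list 12 of 15, or 80% against 72.2% of all genes, and a median of 1.25. Without repeat-like probes the periportal median was 1.09 and with the mean of each gene's probes 0.22, while the pericentral median was 1.25 under both, so the order of the zones depends on the probes. Of pericentral genes, Glul, which makes glutamine, stood at 2.57 and 2.20, while Axin2 and Lgr5, targets of Wnt signalling, were below the rule on both arrays, as was Cyp7a1. Of periportal genes, Cyp2f2 stood at 5.03 and 3.85 and Pck1 and Sds were among the 3 lowest.

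Nuclear receptors are transcription factors switched by small lipophilic ligands, and 40 of 49 genes were members, or 81.6% against 72.2%. Their median of 0.72 was close to the 0.59 of all member genes, and 21 lay above it. The brightest was Nr2f6, an orphan receptor, at 5.24 and 4.97, followed by Nr1h2, which encodes LXR beta, at 4.66 and 4.37. Nr1h3, which encodes LXR alpha, stood at 3.60 and 2.76, for a mean of 3.18 ± 0.59. The retinoid X receptors, which pair with LXR and others, stood at 4.03 and 4.42 for Rxrb, 3.78 and 3.40 for Rxrg, and -0.51 and -0.58 for Rxra, the form usually described as the main one in liver. Signals of different probes do not give the order of these receptors' RNA.

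Receptors of lipid and bile acid sensing were spread over the range. Ppara, the fatty acid sensor that drives oxidation genes, stood at 0.34 and 0.10, Ppard at 1.75 and 1.58, and Pparg, the receptor of fat cells, at 0.80 and 0.66. Nr1h4, the gene of the bile acid sensor FXR, stood at 0.38 and -0.22, and Nr0b2, its target SHP, at -4.55 and -4.51, the dimmest member of the list. Nr1i3 and Nr1i2, the drug sensors CAR and PXR, stood at -0.38 and -1.11, and at -2.20 and -3.85. Nr3c1, the glucocorticoid receptor, stood at 2.50 and 2.94, Nr5a2, a regulator of bile acid genes, at 1.20 and 0.57, and Esrra, a regulator of mitochondrial genes, at 4.07 and 4.15.

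The steroid receptors Esr1, at -4.30 and -3.85, and Nr3c2, at -3.09 and -3.79, were members near the lower end. Those below the rule on both arrays were Esrrg, Hnf4g, Nr0b1, Nr1h5, Nr2e1, Nr2e3, Nr4a3 and Pgr, while Vdr, the vitamin D receptor, passed on 1. In the order by mean, 31 of 39 neighbouring pairs were no farther apart than the larger of their SDs. Nr4a2, an immediate early receptor, had the widest gap between arrays of the list, at 0.04 and 1.95.

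**Figure D3:**
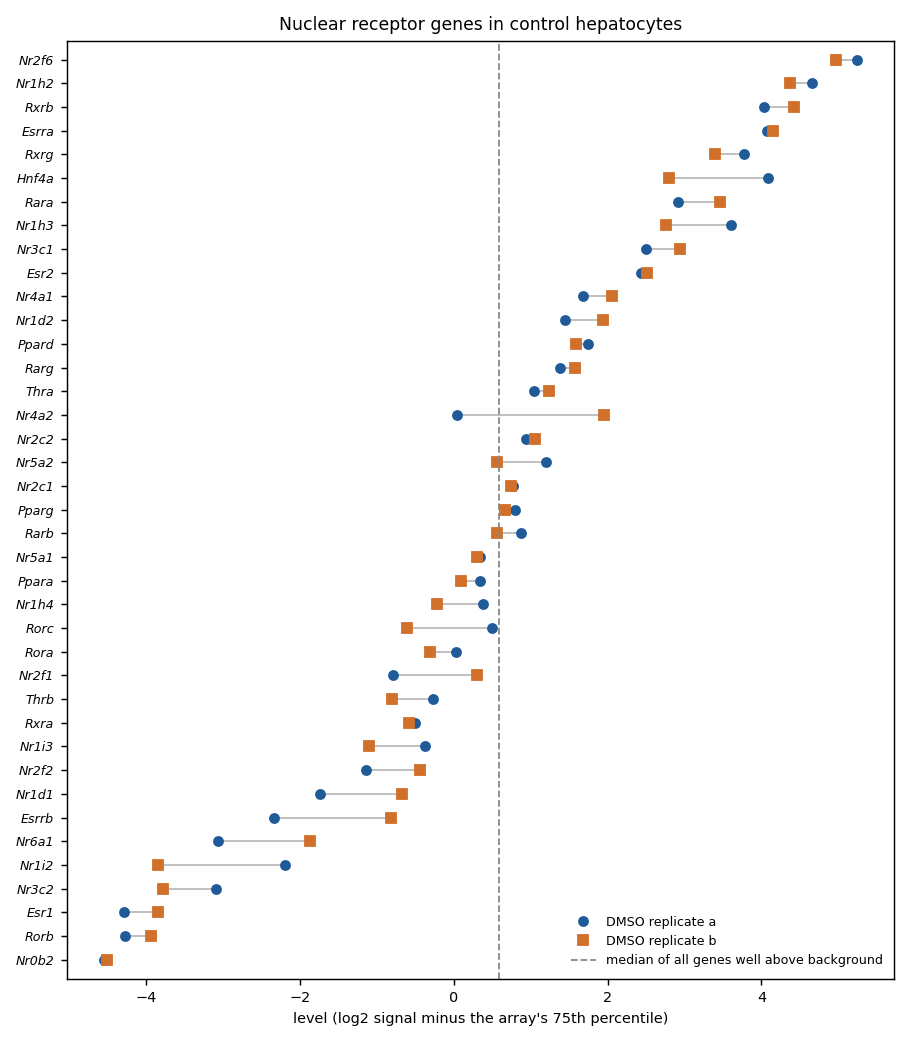
Level of 39 of the 40 member nuclear receptor genes (y axis, ordered by mean) on DMSO replicate a (blue circles) and b (orange squares), in log2 signal minus the array's 75th percentile (x axis), with the median of all member genes, 0.59, as a dashed line. Nr2f6 is brightest, at 5.24 and 4.97, and Nr0b2 dimmest, at -4.55 and -4.51.

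The list of LXR and its targets had 20 members of 21 and a median of 2.28 without agonist. Besides Apoe and Apoc1, Scd1, the stearoyl-CoA desaturase, stood at 4.97 and 5.18. Abca1, which exports cholesterol to lipid-poor apolipoprotein, read 1.46 and 0.55, for a mean of 1.01 ± 0.64, and Abcg5, the partner of Abcg8 in sterol export, -1.64 and -2.40.

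Surface receptors were read by kind. The endocytic and lipoprotein receptors were all members, 20 of 20, with a median of 2.74. With the mean of each gene's probes in place of the brightest, that median was 1.59, and with the dimmest 0.12. Tfr2, which senses iron-loaded transferrin, stood at 5.12 and 4.70, and Asgr2, a subunit of the asialoglycoprotein receptor, at 4.41 and 3.63. Pigr, which carries immunoglobulin A into bile, read 5.90 and 5.60 on a repeat-like probe, with its other probe at a mean of 0.98. Sorl1, a sorting receptor, at -3.98 and -3.74, and Cd36, a fatty acid receptor, at -1.44 and -1.01, were lowest and next to lowest. Cytokine and innate immune receptors were members too, 28 of 28, with a median of 1.46. They were led by Cd14, the co-receptor for bacterial lipopolysaccharide, at 5.76 and 4.51, and Tnfrsf1a, a receptor of tumour necrosis factor, at 4.80 and 4.75. Their median was 0.91 with the mean of each gene's probes and 0.83 with the dimmest, so the order of these 2 lists depends on the probe.

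Hormone and growth factor receptors had 25 members of 32, or 78.1% against 72.2% of all genes, and a median of -0.43. Adipor2, an adiponectin receptor, stood at 5.95 and 6.10, Egfr, the receptor of epidermal growth factor, at 5.25 and 4.09, and Ghr, the growth hormone receptor, at 3.41 and 3.05. Adrb1, a beta-adrenergic receptor, stood at -3.39 and -3.53, and Glp1r, the receptor of an incretin, at -3.57 and -3.54. Below the rule on both arrays were Adra1a, Avpr2, Kl, Mc4r, Sstr2 and Tshr, while Erbb3 passed on 1.

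All 23 liver-enriched transcription factors were members, with a median of 0.88. Atf5, which answers amino acid and mitochondrial stress, stood at 7.03 and 7.71, Xbp1, which expands the secretory pathway, at 5.79 and 4.88, Onecut2 at 4.91 and 5.17, and Cebpb, a factor of the acute phase, at 4.87 and 4.95. Hnf4a followed these. Prox1, at -3.68 and -3.87, Zhx2, at -3.65 and -3.63, and Onecut1, at -3.11 and -3.40, were lowest.

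Of the lists linked to spreading and culture, that of the cytoskeleton had among the highest medians measured. The cytoskeleton list had a median of 7.01, with 30 members of 31 and 24 in the top 10% of all member genes. Krt18 and Actb led it, followed by Actg1, which encodes gamma-actin, at 9.51 and 9.11, Krt8, the partner of Krt18, at 9.29 and 9.13, and Tuba1c, an alpha-tubulin, at 9.15 and 9.25. Krt23 was lowest, at -2.96 and -2.65. The endoplasmic reticulum and integrated stress list had a median of 4.35 over 18 of 18, with the chaperone gene Hspa5 at 7.50 and 7.80, Atf4 at 7.35 and 7.87, and Asns, an asparagine synthetase that ATF4 drives, at 5.68 and 6.83. No fresh liver was analysed here, so these levels carry no comparison with tissue.

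Immediate early genes and chemokines had 26 members of 27 and a median of 2.71. Ccl2, which attracts monocytes, stood at 8.37 and 6.77, and Cxcl1, which attracts neutrophils, at 5.27 and 4.12. Fos, at -1.29 and -1.72, Fosb, at -1.33 and -1.13, and Tnf, at -1.75 and -2.56, were lowest. Cell cycle genes had 18 members of 20 and a median of 0.84. Mcm6 and Pcna, of DNA replication, stood at 5.98 and 6.47, and 4.85 and 5.25, while the mitotic genes Ccnb1, at -3.94 and -2.26, and Top2a, at -3.66 and -1.67, were lowest. Aurkb, a mitotic kinase, was below the rule on both arrays.

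Markers of other liver cells had lower medians than the hepatocyte markers. In bulk RNA, fewer cells of a type and less RNA per cell cannot be told apart. Endothelial markers were all members, 13 of 13 against 72.2% of all genes, with a median of 1.06. Kdr, the receptor of vascular endothelial growth factor, stood at 4.06 and 3.72. Of the stellate cell and fibroblast genes 12 of 14 passed, or 85.7% against 72.2%, with a median of 1.52. Ecm1, a matrix protein, stood at 6.35 and 5.91, and Dcn, a matrix proteoglycan, at 6.10 and 4.93. Lrat, the vitamin A esterifying enzyme that defines quiescent stellate cells, passed on 1 array. Macrophage markers had 15 of 18, or 83.3% against 72.2%, and a median of -1.05, with Cd68, a lysosomal protein, at 5.30 and 4.54. The resident macrophage markers Vsig4, at -3.83 and -3.70, and Adgre1, at -1.36 and -2.75, were low, Clec4f passed on 1 array, and Timd4 and Cd163 passed on neither.

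Cholangiocyte markers had 8 of 10, or 80% against 72.2% of all genes, and a median of -0.67. Spp1, which encodes osteopontin, stood at 5.88 and 6.09, while Krt19, a keratin of bile ducts, read -0.12 on a and 2.60 on b, and Epcam -4.96 and -3.83. Lymphocyte markers had 8 of 13, or 61.5% against 72.2%, and a median of -1.68, with Cd8a, Cd3g and Klrb1c below the rule on both arrays. Of 11 neutrophil and mast cell markers 8 were members, or 72.7% against 72.2% of all genes. Their median was 0.87, with -0.03 on a alone and 1.77 on b alone. The brightest, Csf3r, was read on a repeat-like probe, and without it the median was -0.03. Of 7 erythroid markers 4 were members, or 57.1% against 72.2%. Hba-a1, an alpha-globin, stood at 1.25 and -0.54, and Klf1 and Epb42 were below the rule on both arrays.

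Genes of other tissues marked what was absent or near the limit. Of 95 such genes 51 were members, or 53.7% against 72.2% of all genes, with a median level of -3.05, and 5 lay above the median of all member genes. Of pancreas genes Pdx1, Ptf1a and Ppy passed on neither array, of intestine and stomach genes Cdx2, Muc2 and Gkn1, of lung genes Sftpc and Sftpa1, of muscle genes Ckm and Myh1, of neuron genes Gad1, Gad2 and Stmn2, and of germ cell genes Ddx4, Dazl and Zp2. Members among them included Ins2, an insulin gene, at -1.11 and -1.41, and Prm1, a sperm protamine, at -2.98 and -3.12. Snap25, a protein of synapses, read 4.32 and 4.61 on a repeat-like probe. Passing the detection rule at such levels shows a signal above local background and not that the named transcript was there.

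Families of sensory and defence genes had the lowest shares. Olfactory receptors passed for 202 of 1094 genes, or 18.5%, vomeronasal receptors for 43 of 256, or 16.8%, taste receptors for 8 of 38, or 21.1%, and beta defensins for 9 of 43, or 20.9%. Homeobox cluster genes passed for 18 of 41, or 43.9%, and keratins for 26 of 53, or 49.1%. At the other end, all 48 genes named as subunits of respiratory complex I and all 31 of the small ribosomal subunit passed, as did 39 of 40 proteasome genes. Of negative control spots, 1 of 308 on a and 2 of 308 on b were marked well above background.

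**Figure D4:**
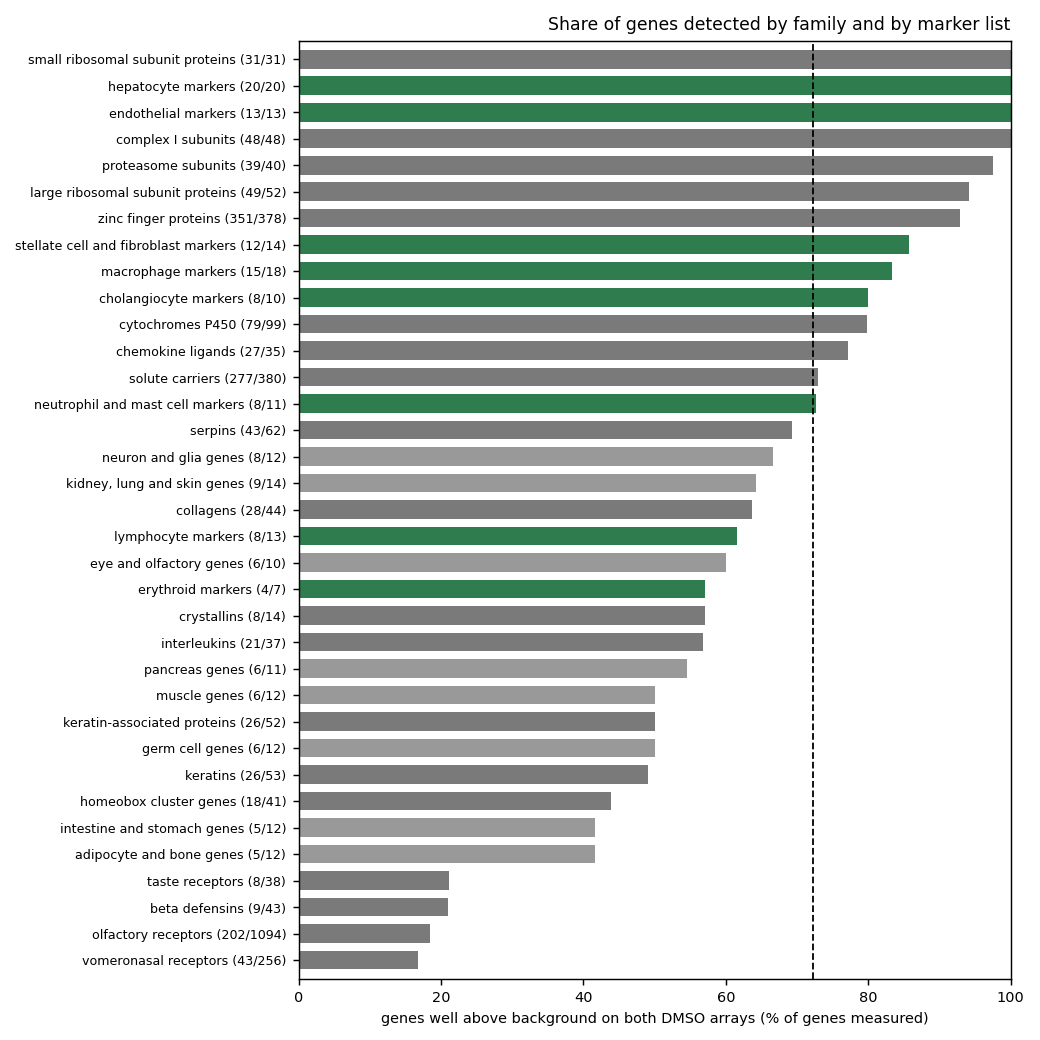
Share of measured genes well above background on both DMSO arrays (x axis, percent) for gene families named by symbol (dark grey), cell type marker lists (green) and other tissue lists (light grey), with members and measured genes in brackets and the share over all 22227 genes, 72.2%, as a dashed line. Vomeronasal and olfactory receptors are lowest, at 16.8% and 18.5%.

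By type of gene, 74.8% of 20132 protein-coding genes were members, with a median level of 0.74, against 40.0% of 1561 long noncoding RNA genes, with a median of -2.80. Probes for intergenic long noncoding RNAs passed for 7588 of 16194, or 46.9%, with a median of -3.11. Pseudogenes passed for 154 of 198, or 77.8%, with a median of 4.69, and their probes may bind the transcripts of parent genes.

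Genes tied to sex were read as well, since the labels do not give the animals' sex. Xist and Tsix, the noncoding RNAs of X inactivation, were below the rule on both arrays. Among Y-linked genes, Eif2s3y stood at 2.82 and 2.04, Ddx3y at 1.18 on both, Uty at -3.35 and -3.43 and Kdm5d at -4.72 and -4.60. Genes known for higher levels in male mouse liver were members for 9 of 9, or 100% against 72.2% of all genes. Those higher in female liver were members for 4 of 9, or 44.4%, with 1 of them on a repeat-like probe. Cyp3a44, Sult3a1 and Cux2 were below the rule on both arrays.

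At the edge of the rule, the dimmest named members were Grm8, at -5.43 and -5.51, Rbmy, at -5.36 and -5.58, and Vmn2r48, at -5.52 and -5.35. The brightest genes left out had passed on 1 array only. They were Ecm2, at 0.85 on a and -5.89 on b, Stpg1, at -0.90 and -5.47, and Itga8, at -5.34 and -2.16. The rule therefore leaves out genes of moderate signal where the 2 samples differ.

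The 2 control samples differed from each other in a patterned way. Over member genes the SD of the difference a minus b was 0.57 on the log2 scale, its median was -0.07 and its quartiles were -0.34 and 0.22. Across these genes, which are not independent replicates, the levels on both arrays had a Pearson correlation of 0.985, a description with no test. At least 2-fold higher on a were 536 of 16044 genes, or 3.34%, and at least 2-fold higher on b were 605, or 3.77%. With arrays centred on their median these counts were 689 and 463, and with normexp background correction 353 and 278, so which side has more calls depends on the processing. Of the former 49 and of the latter 42 lay in the quintile with the highest level, against 120 and 231 in the lowest quintile. The median SD between arrays rose from 0.17 in the highest quintile to 0.24 in the lowest, so dim genes were less precise. Spots of the same probe within an array had a median SD of 0.06 on either array. This was taken over 309 probes on a and 317 on b with at least 5 spots well above background. The median SD between the samples, 0.20, was taken over all member genes, so these values cover different sets.

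Secreted protein genes and those of several metabolic lists were mostly higher on replicate a. Of 116 members on the secreted lists 109 were higher on a, where 43.5% of all member genes were, and 26 were at least 2-fold higher on a and 2 on b. Of the 100 genes with the highest level, of any kind, 70 were higher on a. Not every bright list did so, since 6 ribosomal proteins were higher on a and 14 on b, and 5 respiration genes on a and 13 on b. Several of the brightest genes, among them Mup19, Mup9, Krt18, Actb and Gapdh, did not keep the sign of their difference under every scaling and probe choice tried. Hamp, the iron hormone hepcidin, read 4.15 on a and 0.98 on b, a difference of 3.18, and Ahsg, which encodes fetuin-A, 7.56 and 4.96, a difference of 2.59. Saa4 differed by 2.69 and Fgb by 2.22. Of 26 urea cycle and amino acid genes, 12 were at least 2-fold higher on a and 1, Cth, at least 2-fold higher on b, at 2.91 and 4.71. The median difference was 0.78 for hepatocyte markers, 0.97 for the urea cycle list, 0.81 for periportal genes, 0.61 for phase I enzymes and 0.84 for male-biased liver genes, all 9 of which were higher on a. Lipid synthesis was split, with 11 genes of fatty acid and triglyceride synthesis higher on each array and 14 of cholesterol synthesis and uptake higher on a against 13 on b.

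Cell cycle and endothelial genes ran the other way. Over all member genes 43.5% were higher on a, so most were already higher on b, and 3.77% were at least 2-fold higher on b. Of 18 cell cycle genes 17 were higher on b and 9 were so by at least 2-fold, with a median difference of -0.92. Top2a, the topoisomerase of dividing cells, differed by -1.98. Of 13 endothelial markers 11 were higher on b, with a median of -0.74, among them Oit3, a marker of liver sinusoids, at 1.61 and 3.31, and Vwf, which encodes von Willebrand factor, at -2.08 and -0.37. Of 8 neutrophil and mast cell genes 6 were higher on b, with a median of -1.62. S100a9, a calcium-binding protein of neutrophils, stood at 1.58 and 3.56, and Ngp, a neutrophil granule protein, at -5.10 and -1.65, a difference that ran from -3.45 to -1.61 over the scalings and probe choices tried. Ly6g, a surface marker of neutrophils, went the other way at -1.28 and -2.79, as did Elane, which encodes neutrophil elastase, at 3.06 and 2.70. Ribosomal proteins, with a median difference of -0.10, and nuclear receptors, with one near 0, had no direction that kept its sign under every scaling tried.

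The summed signal of each marker list was taken as log2 over all its measured genes. It was 12.40 on a and 11.98 on b for hepatocyte markers, 6.46 and 6.02 for macrophage markers, 7.52 and 7.27 for markers of stellate cells and fibroblasts, 4.32 and 3.59 for lymphocyte and 2.14 and 1.09 for erythroid markers. The stellate and fibroblast sum was thus higher on a, although 7 of its 12 members were higher on b and their median difference was -0.22. Higher on b, the sum was 5.73 on a and 6.27 on b for endothelial, 6.13 and 6.80 for cholangiocyte, and 7.19 and 7.35 for neutrophil and mast cell markers. Of the 8 cholangiocyte members 5 were higher on b and 3 on a, with a median difference of -0.13. Most of the neutrophil and mast cell sum came from Csf3r on its repeat-like probe, at 7.03 and 7.08. The macrophage sum likewise held Itgam on a repeat-like probe, at 4.64 and 4.93, with its other probes at means of -2.51 and -3.53. The hepatocyte sum held Slc10a1 on such a probe, at 9.70 and 9.51. The part of cell make-up in the differences between the 2 samples was not tested. Among the named genes outside the lists, wide gaps were those of Ehf, a transcription factor of epithelia, at 0.23 on a and -4.58 on b, Cck, the gut hormone cholecystokinin, at 3.26 and -1.24, and Mgp, a matrix protein that blocks calcification, at -5.20 and -0.39. Over the scalings and probe choices tried, the difference ran from 3.03 to 4.92 for Ehf, from 4.23 to 4.61 for Cck and from -4.81 to -2.81 for Mgp. Both arrays lay on 1 slide and were read in 1 scan, at positions 1 and 3, so neither slide nor scan separates them.

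**Figure D5:**
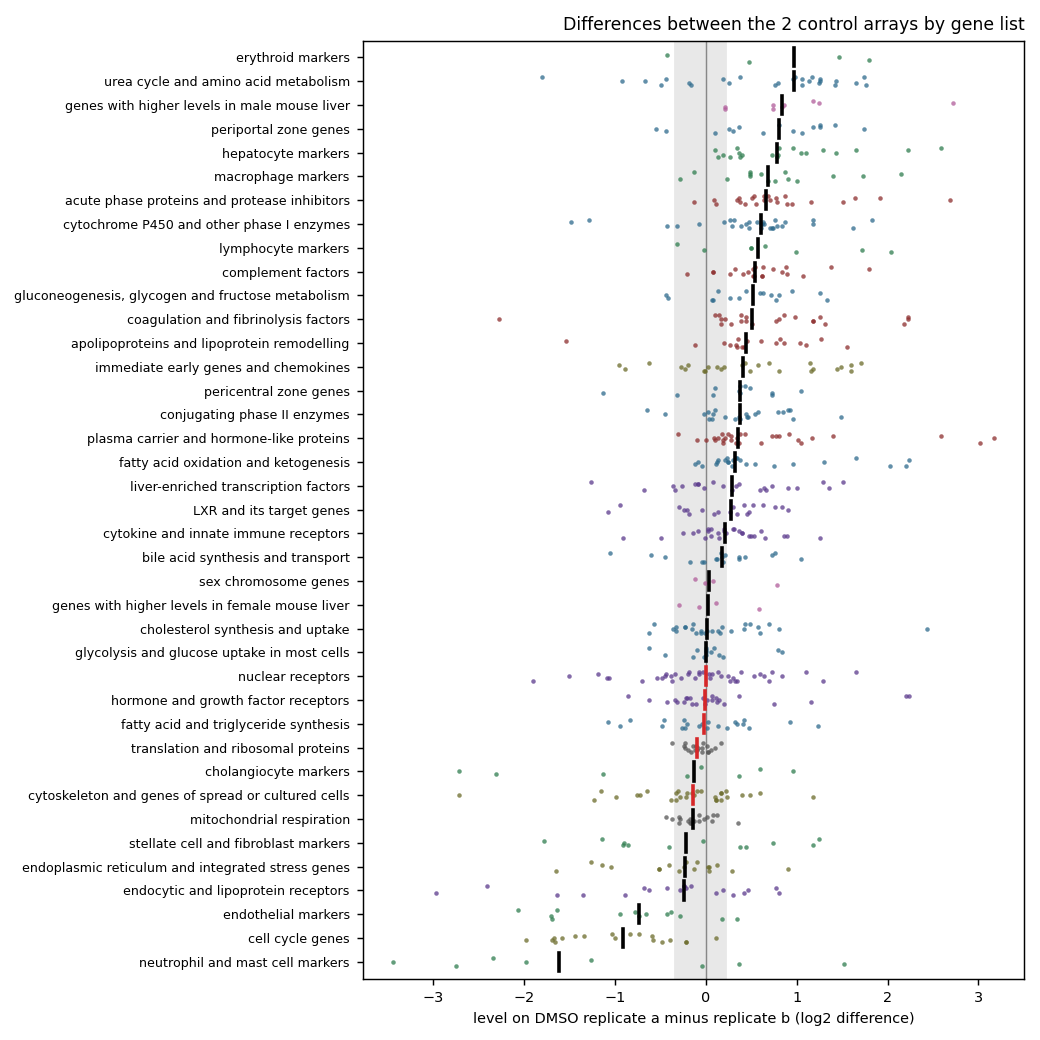
Level on DMSO replicate a minus replicate b (x axis, log2 difference) for member genes of 39 gene lists (y axis), where points are genes, bars are list medians, red bars mark lists whose median changed sign under another scaling or probe choice, and the grey band holds the quartiles of all member genes, -0.34 and 0.22. All 20 hepatocyte markers lie above 0, and 17 of 18 cell cycle genes lie below it, where 43.5% of all member genes lie above it.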

How the data were processed

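Total RNA of primary mouse hepatocytes was labelled with Cy3 and read on Agilent arrays of design 028005. Per the file headers, the values deposited by the authors are spot intensities from Agilent Feature Extraction 10.7.3.1, corrected for background on a linear scale and not scaled between arrays. Version 11.5.1.11 is the one in the submitters' processing notes. The deposited value table was identical to it at all 62976 features of each control array (largest difference 0, column medians 35.5 and 42.7), so its scale is linear and it is neither centred nor a ratio.

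From these intensities, spots flagged as outliers (135 and 83) and control spots were left out, 0 spots being saturated. The log2 signals of a probe's spots were averaged. An array's 75th percentile, an intensity of 544.6 on a and 604.8 on b, was subtracted from them. Probes well above background numbered 34773 on a and 36299 on b. Symbols came from a RefSeq table (GRCm38.p6) by accession for 26850 probes, by symbol for 3761 and by an unambiguous synonym for 625, while 24445 had none. Probe positions are those of the files, on mm9. RefSeq promoters were matched by symbol.

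Of 899 entries on 47 lists, 891 had a probe. Text names the 30 genes with the highest level, up to 5 highest and 3 lowest members of each list and those below the rule, every nuclear receptor, the genes at the edges of the rule and those with the widest gaps between samples or probes. Some genes that this rule names are not reported here. The members and lists were chosen with earlier results of these data known. No test was run. The scripts were tested on simulated data. Python 3.11.15, pandas 2.3.3, R 4.3.3, limma 3.58.1 (normexp alternative) and matplotlib 3.10.9 were used.

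Alternatives were other detection rules, scalings, background corrections and gene summaries, the deposited table, each array alone and, added after the data were seen, no repeat-like probes and, for list medians, quantile normalization. The 2 arrays given GW3965 were used only for the rule over 4 arrays.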

Additional observations from a re-analysis of the deposited data

How the results depend on the processing

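With normexp background correction (offset 50), genes at least 2-fold higher on replicate a fell in number from 536 to 353, and those higher on b from 605 to 278. The cause was not tested. Median centring moved the median difference of all member genes from -0.07 to 0.04 and gave 689 and 463 genes, so that the sides traded places. The other scalings and gene summaries gave 525 to 603 and 520 to 605. Member genes numbered 15875 to 18284 under the detection and probe rules tried, with 16313 on a alone and 16731 on b alone. Secreted genes among the top 100 numbered 11 on b alone, 16 on a alone and 13 to 16 otherwise. Of 47 list medians, those that moved by more than the list's spread between samples were 28 with the dimmest probe of each gene, 23 with the mean of its probes, 21 with genes below the rule kept, 9 without replicate a, 13 without replicate b, 13 with normexp, 6 without repeat-like probes and 0 under the other scalings or the deposited table, where a setting that moves the zero point was compared after removing the shift of all genes. The share of TATAAA in the top quintile was 2.30% and ran from 2.18% to 2.33%. The planned scan of N-terminal hydrophobic stretches and its stricter threshold were not run, since no protein sequences were used here. No paired analysis was possible because a single group was described. Levels near -5.6 are at the limit of detection, and 2 samples limit every value.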
